A study of Mus musculus with 232 samples.

Results

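Immature astrocytes of the mouse dentate gyrus were taken as the cells that the authors' table of cells assigns to the cluster Immature-Astro. They numbered 651 of 24185 cells, or 2.69% of all cells. The clusters come from the same counts that are described here, so levels in Immature-Astro against another cluster are given as descriptions without a test.

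Single cells were isolated from microdissected dentate gyrus by papain digestion and captured on the 10X Genomics Chromium system, at 8 ages from E16.5 to P132. Immature-Astro cells came from CD-1 mice at 4 ages: 124 cells at P0, 514 at P5, 1 at P18 and 12 at P23. The pools at P0 and P5 are labelled as of unknown sex, and those at P18 and P23 as male. The other groups used below include RGL_young (young radial glia-like cells) and Immature-GC (immature granule cells). Like nIPC (neuronal progenitors) and Immature-Pyr (immature pyramidal neurons), they came from the same P0 and P5 pools. Astro-juv (juvenile astrocytes) came from male CD-1 mice at P18 and P23 and female C57Bl/6 mice at P19. The shares by age use all cells of each age, also those of E16.5, from CD-1 mice of unknown sex. The pools of P120 and P132, in which GFP-positive cells of the hGFAP-GFP line were sorted, held no Immature-Astro cell.

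Astrocytes of the dentate gyrus arise around birth from radial glia, the same lineage that yields granule neurons and the adult neural stem cells. As they mature they acquire glutamate transporters, gap junction proteins and the water channel of their endfeet, and lose the intermediate filaments and lipid-binding proteins of radial glia. Notch signalling keeps radial glia undifferentiated and also favours the astrocyte fate, while BMP signals act partly through the Id proteins.

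P0 and P5 were each captured in 2 libraries, which held 57 and 67 Immature-Astro cells at P0 and 269 and 245 at P5. Their summed depth was 277863 and 366703 UMIs (unique molecular identifiers, 1 per captured RNA molecule) at P0 and 1195688 and 1114861 at P5. The median cell held 4907.5 UMIs at P0, 4061 at P5 and 3173 at P23. No label says that the 2 libraries of an age came from separate animals, so their spread may be technical, and with 1 pool per age no test between P0 and P5 was made. Age, animals and capture cannot be told apart between P0 and P5. Among Immature-Astro cells, 1 barcode occurred in more than 1 library, and 25 of the cells had a barcode that also named a cell of another library among all clusters. Levels are CPM, the UMIs of a gene in 1000000 UMIs of the sum, and intervals are exact 95% intervals that cover counting error only.

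The 4 markers given for the cell type were present. Slc1a3, the glutamate transporter GLAST (chr15:8634124-8710764 in GRCm38), was detected in 123 of 124 cells at P0 and 513 of 514 at P5. Aldoc, a glycolytic aldolase enriched in astrocytes (chr11:78322968-78327781), was detected in 121 and 498 cells. Sox9, a transcription factor of the glial lineage (chr11:112782224-112787760), was detected in 92 and 417 cells, and Gja1, the gap junction protein connexin 43 (chr10:56377330-56402513), in 59 and 468 cells. All 4 were seen together in 36.3% of the cells at P0 and 73.5% at P5, and in 0 of 436 Immature-GC cells at P0, which allows a share of up to 0.688%, and 0 of 1271 at P5, which allows up to 0.236%. The median depth of those neurons was 4227 UMIs at P0 and 4715 at P5. The markers set these cells apart from neurons but less so from RGL_young, in which all 4 were seen in 65 of 325 cells at P0 and 84 of 241 at P5. After thinning to 1000 UMIs the share at P0 was 3.23% in Immature-Astro and 2.77% in RGL_young. At P5 the thinned shares lay further apart, at 14.98% in Immature-Astro and 2.49% in RGL_young. Sox9 was higher in RGL_young at both ages, at 503 and 460 CPM against 318 and 441 CPM.

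**Figure D1:**
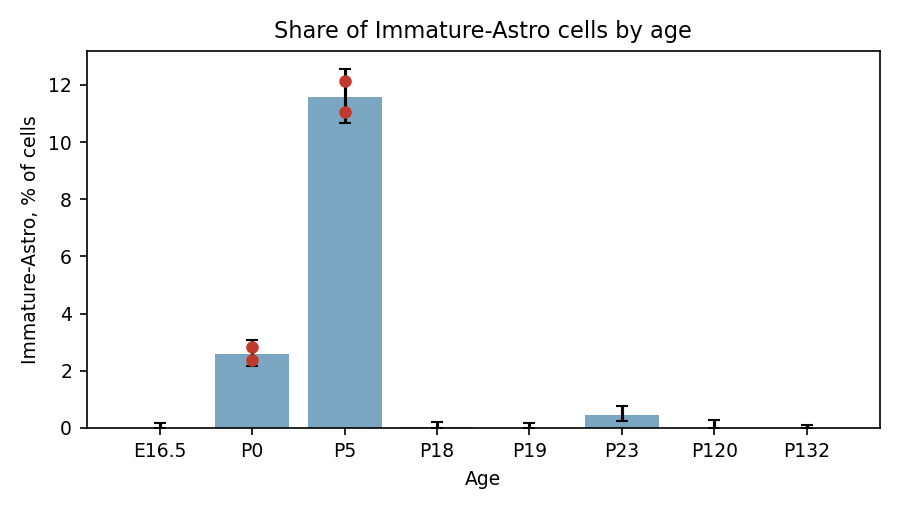
Immature-Astro cells as a percentage of all cells at each age (bars), with exact 95% binomial intervals that cover counting error only. Red points are the single libraries of P0 and P5; the share was 2.59% at P0 and 11.6% at P5.

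The first question was when these cells were captured. Their share of all cells was 2.59% at P0 (exact binomial interval 2.16 to 3.09%) and 11.6% at P5 (10.7 to 12.6%). The libraries gave 2.37% and 2.83% at P0 and 12.1% and 11.04% at P5, so the 2 ages did not overlap. The share was 0.0369% at P18 and 0.444% at P23, where all other astrocytes carried the names Astro-juv or Astro-adult. No cell was found among 2285 at E16.5, which allows a share of up to 0.131%, nor among 2081 at P19, which allows up to 0.144%. Over the 3 perinatal ages the mean share was 4.73% ± 6.08 (SD, n = 3) against 0.160% ± 0.247 (SD, n = 3) over the 3 juvenile ages. The exact two-sided permutation test gave p = 0.4, and the smallest p this design allows is 0.1. In shares of captured cells, a gain of these cells and a loss of others cannot be told apart. Among the radial glia-like and astrocyte clusters together, Immature-Astro made up 27.6% at P0 and 68.1% at P5.

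Between P0 and P5 the genes past 2-fold higher included Gja1, Aqp4, Slc1a2, Gfap and S100b, and those past 2-fold lower included Fabp7, Vim, Hopx, Btg2 and Egr1. The 4 libraries averaged at least 50 CPM for 3222 genes. Of these, 148 (4.59%) were at least 2-fold higher at P5 and 70 (2.17%) at least 2-fold lower, in each case without overlap between the libraries of the 2 ages. Such non-overlap was common, since 67.3% of the 3222 genes showed it in one direction or the other, so it adds little to a ratio. The median log2 ratio of all 3222 genes was -0.06. The shares of 4.59% higher and 2.17% lower are the background for each count of list members past 2-fold given below. Of the 148 genes, 24 were also past 2-fold in the same direction in RGL_young of the same pools, where 1.52% of all genes were, and 48 in Immature-GC, where 6.28% were. Of the 70 genes, 13 and 4 were, against 1.37% of all genes in each of these clusters. By direction alone, 123 of the 148 and 64 of the 70 went the same way in RGL_young, and 124 and 44 in Immature-GC. The median log2 ratio of the 148 genes was 0.51 in RGL_young and 0.67 in Immature-GC, against -0.01 and -0.06 over all genes.

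In the astrocyte list for uptake, coupling and water transport, all 13 of its members at 50 CPM or more had a ratio above 1 (45.5% of all genes did), 5 were past 2-fold, and the median log2 ratio was 0.96, against 0.71 for the same genes in RGL_young. In Immature-GC, which should lack these genes, the median was larger, at 1.30, with 8 of 13 past 2-fold higher from low levels. Gja1 stood at 115 and 205 CPM in the P0 libraries and 855 and 888 CPM in the P5 libraries. The 2 ages did not overlap, and the ratio was 5.25 (4.32 to 6.43), while in RGL_young it was 1.83. Aqp4, the water channel aquaporin 4, stood at 176 and 316 CPM at P0 and 1139 and 1215 CPM at P5, a ratio of 4.59 (3.92 to 5.41). Slc1a2, the main glutamate transporter of mature astrocytes (GLT-1), stood at 705 and 641 CPM at P0 and 2595 and 2474 CPM at P5, a ratio of 3.79 (3.44 to 4.19). For both genes each P5 library stood above each P0 library. Atp1b2, a sodium pump subunit of glia, and Cldn10, a claudin, were the other members past 2-fold, with ratios of 2.52 and 2.74. Slc1a3, which radial glia already carry, was higher by a smaller ratio of 1.48 (1.41 to 1.56), and Glul, glutamine synthetase, by 1.21.

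Gjb6, connexin 30, and Grin2c, an NMDA receptor subunit of astrocytes, had 0 UMIs at P0. At P5 they stood at 8.22 and 10.8 CPM, low but above the 1.30 CPM that 3 counts equal. In Astro-juv they stood at 409 to 573 CPM and 331 to 394 CPM. In Immature-GC the summed level of the list was 271 CPM at P0 and 489 CPM at P5, against 7050 and 14440 CPM in Immature-Astro. The low level of these genes in Immature-GC thus differed in the same direction between the pools. Whether it was RNA from other cells, and the part of such RNA in the result, was not tested.

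**Figure D2:**
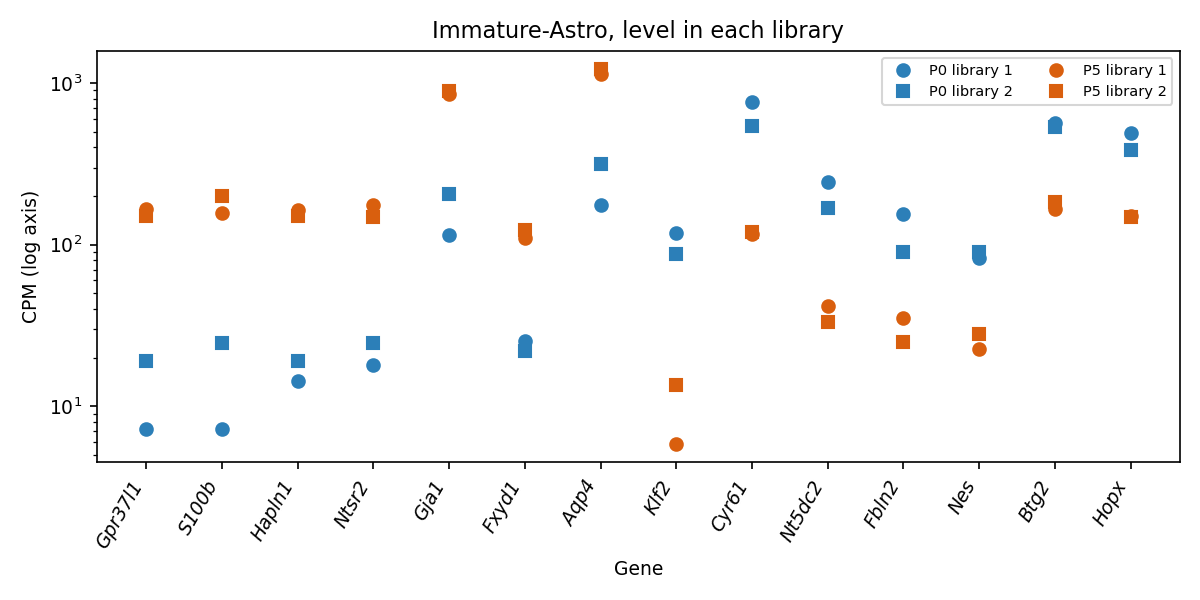
Level of the genes with the largest ratios in either direction in each of the 4 libraries, in CPM on a log axis (blue, P0; orange, P5; circle and square, the 2 libraries of an age). Hspb1 and Xist are left out for the reasons given in the text. The genes were picked by a rule that requires both P5 libraries to lie on the same side of both P0 libraries.

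The list of astrocyte identity and metabolism had more spread. Of its 26 members, 9 were past 2-fold higher, 0 lower, and the median log2 ratio was 0.71, against 0.16 in RGL_young. In Immature-GC the median was 0.89, with 11 of 26 past 2-fold higher and 0 lower, at a summed 1361 CPM at P0 and 2169 CPM at P5 against 30315 and 51431 CPM in Immature-Astro. The part of RNA from other cells in this list was not tested. The largest ratios belonged to genes that were low at P0. Gpr37l1, a glial G protein-coupled receptor, had 9 UMIs at P0 and 368 at P5, with 7.2 and 19.1 CPM in the P0 libraries and 167 and 151 CPM in the P5 libraries. S100b, a calcium-binding protein used as an astrocyte marker, stood at 7.2 and 24.5 CPM at P0 and 158 and 199 CPM at P5, a ratio of 10.4 (5.76 to 21.0). Ntsr2, a neurotensin receptor of astrocytes, had a ratio of 7.49. Hapln1, a link protein of the hyaluronan matrix that belongs to the secreted and matrix list, had a ratio of 9.23. The low P0 counts left the ratios wide: without P0 library 2 the ratio was 22.1 for Gpr37l1, in place of 11.4, and 24.7 for S100b.

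Among the more abundant members, Gfap, the intermediate filament of astrocytes and of radial glia, stood at 345 and 385 CPM at P0 and 1468 and 1604 CPM at P5, a ratio of 4.17 (3.66 to 4.78). In RGL_young Gfap was 481 CPM at P0 and 562 CPM at P5. Clu, the secreted chaperone clusterin, had a ratio of 3.11, Htra1, a secreted protease, 3.09, and Cst3, the protease inhibitor cystatin C, 2.63. Apoe, the lipid carrier, was 1.75-fold higher, while Aldoc and Aldh1l1, the folate enzyme used to label astrocytes, had ratios of 0.80 and 0.76 and did not pass 2-fold. Fxyd1, a regulator of the sodium pump outside these lists, had a ratio of 4.98. The genes of the adult astrocyte therefore did not all differ in the same direction.

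Hspb1, a small heat shock protein, met the 2-fold rule through 1 cell. It had 0 UMIs at P0 and 299 at P5, of which a single cell held 98.0%, and the P5 libraries stood at 248 and 2.69 CPM. No fold is given for it.

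Genes of radial glia split. Of 22 members of the radial glia and stem cell list, 4 were past 2-fold lower, 1 was past 2-fold higher and 17 were within 2-fold, with a median log2 ratio of -0.09. Fabp7, the brain lipid-binding protein of radial glia, stood at 34143 and 27952 CPM at P0 and 14958 and 15274 CPM at P5, 2.03-fold lower (1.99 to 2.06) at P5. In RGL_young it was 1.25-fold lower. Hopx, a marker of dentate stem cells, stood at 493 and 387 CPM at P0 and 150 and 148 CPM at P5, and was 2.91-fold lower. Vim and Nes, the intermediate filaments vimentin and nestin, were 2.16-fold and 3.46-fold lower, with ratios close to 2 in RGL_young as well (2.06 and 2.08). Id4, a helix-loop-helix inhibitor, was the member past 2-fold higher, at 32.4 and 27.3 CPM at P0 and 108 and 155 CPM at P5. Other members stayed within 2-fold, such as Sox2, a stem cell transcription factor, at 202 and 335 CPM at P0 and P5, and Ptprz1, a receptor phosphatase, at 2116 and 3326 CPM.

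**Figure D3:**
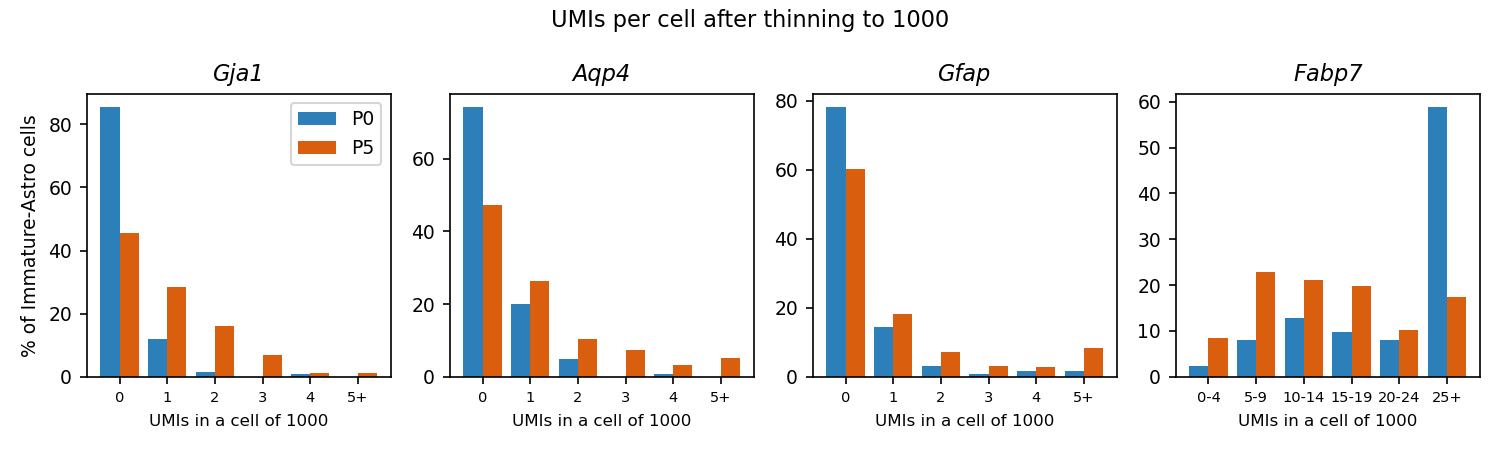
Share of Immature-Astro cells holding a given number of UMIs of each gene after every cell was thinned to 1000 UMIs (blue, P0; orange, P5). Cells with 0 UMIs of Gja1 and Aqp4 were fewer at P5 and cells with 25 or more UMIs of Fabp7 were fewer at P5.

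The shift was visible in the share of cells as well as in the sums. After each cell was thinned to 1000 UMIs, Gja1 was detected in 14.5% of cells at P0 (exact interval 8.84 to 22.0%) and 54.3% at P5 (49.9 to 58.6%). Before thinning the shares were 47.6% and 91.1%. In Immature-GC the thinned share was 0.229% at P0 and 0.315% at P5, and the unthinned share 0.459% and 2.68%. Aqp4 was detected in 25.8% and 52.7% of thinned cells, and Gfap in 21.8% and 39.7%. In RGL_young, thinned cells without a UMI of these genes were also fewer at P5. Their share was 92.9% at P0 and 86.3% at P5 for Gja1, 96.9% and 89.6% for Aqp4, and 76.6% and 66.8% for Gfap. In Immature-Astro, detection of Hopx went the other way, at 28.2% and 12.3%, and Fabp7 was detected in 100% of thinned cells at P0 and 99.4% at P5. Summed over the 2 astrocyte lists, Slc1a3 left out, the median thinned cell held 34.5 UMIs at P0 and 64 at P5, and cells ranged from 1 to 138 UMIs at P5. The radial glia list, without Slc1a3, had a median of 37.5 UMIs at P0 and 26 at P5. Across the 514 cells of P5 the Spearman correlation between these 2 sums was 0.13, and across the 124 cells of P0 it was 0.47, given as a description of cells that share libraries.

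The Notch list had 10 of its 26 members at 50 CPM or more. None of them passed 2-fold in either direction, and 6 had a ratio below 1, a share near the 54.5% of all genes. The median log2 ratio was -0.24, against 0.08 in RGL_young. Values of the target genes, short of 2-fold, were as follows. Hes5, a transcriptional repressor, stood at 1537 and 1134 CPM at P0 and 677 and 698 CPM at P5, 1.90-fold lower (1.75 to 2.07). Hes1, its relative, was 1.75-fold lower, and Nrarp, an ankyrin repeat inhibitor of the pathway, stood at 435 and 374 CPM at P0 and 251 and 242 CPM at P5, 1.62-fold lower. In RGL_young Hes5 was 1.60-fold, Hes1 2.40-fold and Nrarp 1.26-fold lower. The receptors did not follow them, with ratios of 1.04 for Notch1 and 1.80 for Notch2. The ligands Dll1 and Jag1 were at 7.76 and 10.9 CPM at P0, and Rbpj, the DNA-binding partner of Notch, at 26.4 CPM, below the level at which genes were compared.

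The promoters of Hes5 and Nrarp are shown because both genes are Notch targets described here, neither past 2-fold. Each run is 300 bases, from 250 before to 50 after the gene start, on the gene's strand, from RefSeq on GRCm38.p6. Capitals mark TGGGAA, the core letters of the Rbpj binding motif, searched on both strands (TTCCCA on the other). Hes5 lies at chr4:154960673-154960972 and Nrarp at chr2:25180508-25180807, both on the plus strand.
Hes5: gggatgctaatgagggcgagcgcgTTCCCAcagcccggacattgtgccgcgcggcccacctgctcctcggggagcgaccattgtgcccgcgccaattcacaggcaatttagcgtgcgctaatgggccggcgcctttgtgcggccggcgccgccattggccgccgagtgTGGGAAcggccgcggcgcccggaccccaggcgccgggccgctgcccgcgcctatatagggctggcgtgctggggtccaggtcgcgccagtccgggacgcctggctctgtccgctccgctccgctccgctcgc
Nrarp: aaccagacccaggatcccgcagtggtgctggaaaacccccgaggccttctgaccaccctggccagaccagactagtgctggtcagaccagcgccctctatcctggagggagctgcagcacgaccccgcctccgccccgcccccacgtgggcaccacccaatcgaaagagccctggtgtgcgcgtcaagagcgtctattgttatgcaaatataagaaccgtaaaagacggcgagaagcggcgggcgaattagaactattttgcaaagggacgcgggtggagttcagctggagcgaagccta
The Hes5 window held 2 matches, 1 on each strand, and the Nrarp window held 0. Of 32851 promoter windows of this length, 25.6% held at least 1 match and 3.79% at least 2. A match is a description of the letters and not a binding site. This motif and the others searched were chosen after the values of the genes were seen. TTGGC, a short motif of the NFI factors of astrocyte development (GCCAA on the other strand), was searched in the same windows of Gfap and Gja1 and had 0 matches in each, while 46.7% of all windows held at least 1.

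The BMP list had 7 of 25 members at 50 CPM or more, 1 of them (Id4) past 2-fold higher and 0 lower, with a median log2 ratio of 0.36. Id2 stood at 515 and 600 CPM at P0 and 1137 and 1061 CPM at P5, and Bmpr1a, a BMP receptor, had a ratio of 1.67. Id1 had a ratio of 0.84 and Id3 of 1.10. The Id genes thus differed among themselves, and 18 members, including the ligands Bmp2, Bmp4, Bmp6 and Bmp7, were below the level compared.

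Metabolic genes split within their pathways. In the list of cholesterol and lipid synthesis, 3 of 19 members were past 2-fold higher and 1 past 2-fold lower, with a median log2 ratio of -0.26. That median changed sign with the setting, to 0.07 without P0 library 1 and 0.11 with every cell thinned to 1000 UMIs, so no direction is given for the list. Fdps, farnesyl diphosphate synthase, stood at 648 and 540 CPM at P0 and 217 and 239 CPM at P5 and was 2.58-fold lower. Scd2, a fatty acid desaturase, stood at 936 and 864 CPM at P0 and 2200 and 2218 CPM at P5, and Fasn, fatty acid synthase, and Srebf2, the regulator of sterol synthesis, had ratios of 2.53 and 2.08. Fatty acid genes and the isoprenoid enzyme Fdps therefore lay on opposite sides. In the list of glycolysis and lactate, 0 of 11 members passed 2-fold in either direction and 8 had a ratio below 1 (54.5% of all genes did). Ldha, lactate dehydrogenase A, stood at 648 and 734 CPM at P0 and 382 and 361 CPM at P5, while Ldhb, the other subunit, had a ratio of 1.37.

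Of 14 members of the secreted and matrix list at 50 CPM or more, 12 were within 2-fold and 10 had a ratio above 1 (45.5% of all genes did), with Hapln1 past 2-fold higher and Sparc, a matricellular protein, past 2-fold lower. Ncan, the perineuronal proteoglycan neurocan, stood at 2775 and 2400 CPM at P0 and 4358 and 4183 CPM at P5, a ratio of 1.67 (1.58 to 1.76), while in RGL_young it was 816 and 600 CPM. Sparcl1, hevin, which promotes synapse formation, had a ratio of 1.81, and Sparc stood at 396 and 248 CPM at P0 and 122 and 104 CPM at P5. Fbln2, the matrix protein fibulin 2 and outside the lists, stood at 155 and 89.99 CPM at P0 and 35.1 and 25.1 CPM at P5. Nt5dc2, a nucleotidase domain protein outside the lists, stood at 245 and 169 CPM at P0 and 41.8 and 33.2 CPM at P5. Both genes were among the 8 with the largest ratios in favour of P0.

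**Figure D4:**
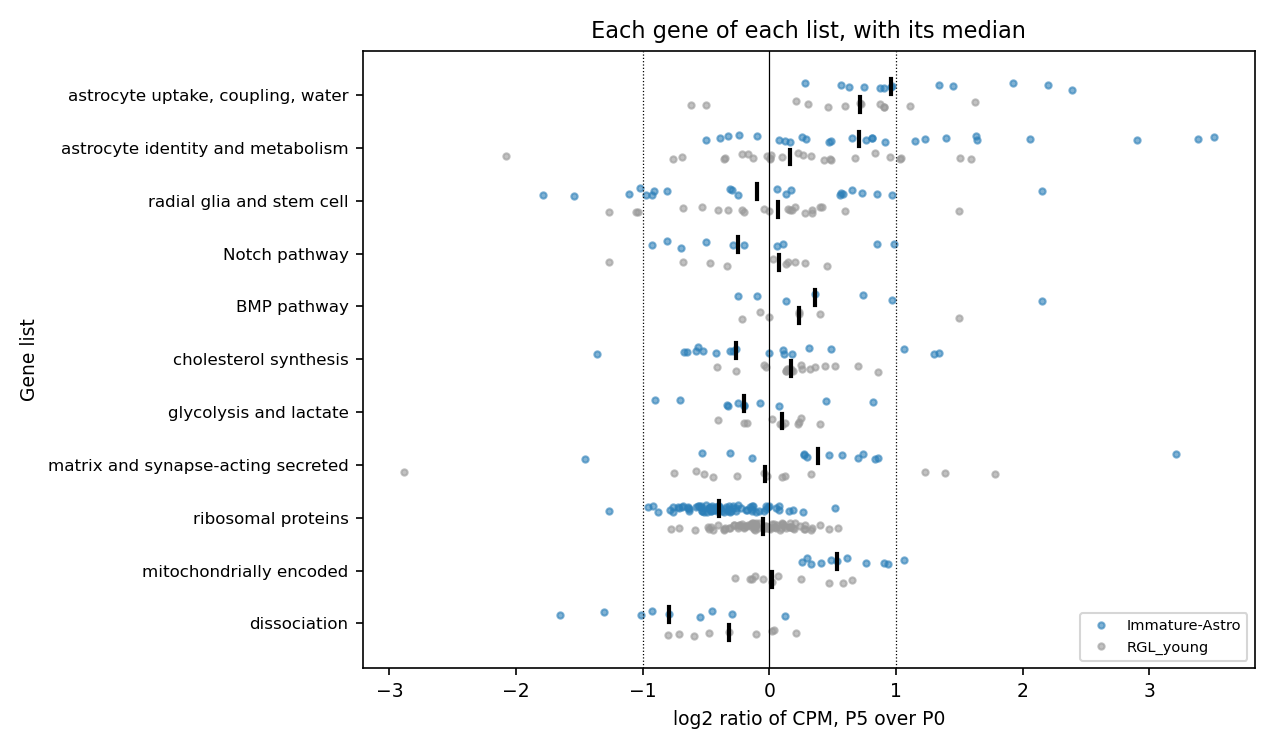
Log2 ratio of CPM at P5 over P0 for each gene of each list at 50 CPM or more, in Immature-Astro (blue) and in RGL_young of the same pools (grey); black bars are medians, dotted lines 2-fold. Hspb1 and the cycling list, with 1 gene at that level, are left out. The medians of the 2 astrocyte lists lie above 0 and that of the dissociation list below 0 in Immature-Astro.

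The dissociation list holds genes of the immediate early response, which tissue dissociation is known to induce. Of 10 members of that list at 50 CPM or more, 3 were past 2-fold lower (Btg2, Ier2 and Egr1) and 1 higher (Hspb1, through 1 cell). Without Hspb1 the median log2 ratio was -0.79, and -0.32 for the same genes in RGL_young. Fos stood at 2087 and 2340 CPM at P0 and 1308 and 1267 CPM at P5, 1.73-fold lower. Btg2, an antiproliferative early gene, stood at 569 and 537 CPM at P0 and 167 and 184 CPM at P5, 3.14-fold lower (2.72 to 3.63). Klf2, a transcription factor induced early, stood at 119 and 87.3 CPM at P0 and 5.85 and 13.5 CPM at P5, and Cyr61, a matrix-associated early gene, was 5.42-fold lower. Without P5 library 2 the P5 over P0 ratio of Klf2 was 0.058, in place of 0.094. Without Hspb1 the list summed to 7217 CPM at P0 and 4332 CPM at P5, and to 414 to 693 CPM in Astro-juv. The part of dissociation in the differences between P0 and P5 was not tested.

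The promoters of Fos and Btg2 are shown because both are early genes described here, Btg2 past 2-fold and Fos short of it. They are 300-base RefSeq windows on GRCm38.p6 as above, with Fos at chr12:85473640-85473939 on the plus strand and Btg2 at chr1:134079106-134079405 on the minus strand. Capitals mark TGACG, the core of the cyclic AMP response element, searched on both strands (CGTCA on the other).
Fos: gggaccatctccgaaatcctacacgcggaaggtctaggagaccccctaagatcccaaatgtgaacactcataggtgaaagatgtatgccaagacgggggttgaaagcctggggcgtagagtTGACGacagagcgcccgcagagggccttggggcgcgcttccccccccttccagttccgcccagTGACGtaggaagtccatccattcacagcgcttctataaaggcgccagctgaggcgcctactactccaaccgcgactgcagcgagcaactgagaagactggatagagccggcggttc
Btg2: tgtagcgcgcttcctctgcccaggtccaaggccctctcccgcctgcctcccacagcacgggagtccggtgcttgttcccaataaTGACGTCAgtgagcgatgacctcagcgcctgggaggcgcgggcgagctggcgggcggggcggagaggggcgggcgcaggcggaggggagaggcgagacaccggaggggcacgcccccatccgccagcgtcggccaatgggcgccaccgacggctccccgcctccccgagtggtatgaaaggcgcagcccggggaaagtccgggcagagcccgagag
Each window held 2 matches, and in Btg2 the 2 overlap on opposite strands as the palindrome. Of all windows, 20.8% held at least 1 match and 5.01% at least 2.

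Ribosomal protein genes differed by a small step. Of 79 members at 50 CPM or more, 72 had a ratio below 1 (54.5% of all genes did) and 1 passed 2-fold, with a median log2 ratio of -0.40, against -0.05 in RGL_young and 0.14 in Immature-GC. Their summed level was 152838 and 154100 CPM at P0 and 119468 and 117999 CPM at P5. The 11 mitochondrially encoded genes at that level all had a ratio above 1, with a median log2 ratio of 0.53, against 0.02 in RGL_young. Their summed level was 43197 CPM at P0 and 58711 CPM at P5. Both groups are common signs of RNA quality and cell state, and their part in the other differences was not tested.

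Sex-linked transcripts differed between the ages. Xist, the non-coding RNA of the inactive X chromosome in female cells, had 157 UMIs in 22 of 124 cells at P0 and 1 UMI at P5. It led the genes that were lower at P5, and in RGL_young it was 532 CPM at P0 and 0 CPM at P5. The Y-linked gene Ddx3y had UMIs at both ages, in 32 cells at P0 and 166 at P5. The part of the animals' sex in the other differences was not tested. Without the cells holding an Xist UMI, 206 genes were past 2-fold in place of 218, and 179 genes were shared.

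Transcripts of the cell cycle were rare in these cells. After thinning to 1000 UMIs, 3 of 124 cells at P0 (2.42%, exact interval 0.502 to 6.91%) and 12 of 514 at P5 (2.33%, 1.21 to 4.04%) held 2 or more UMIs of the 15-gene cycling list. In nIPC, the cycling neuronal progenitors, the share was 100% at P0 and 96.7% at P5. In RGL_young it was 11.7% and 6.22%, in Astro-juv at P23 0.259%, and in Immature-Pyr, immature pyramidal neurons, 0.128% and 0.444%. Hmgb2, a chromatin protein that is not limited to cycling cells, was the single member above 50 CPM, at 256 CPM at P0 and 125 CPM at P5. Mki67, the proliferation marker Ki-67, had UMIs in 3 cells at P0 and 5 at P5 before thinning. The libraries of P5 gave 0.743% and 4.08%, and those of P0 5.26% and 0%, so the libraries of an age differed by more than the ages did. Without Hmgb2 the shares were 0.806% and 1.17%, against 0.923% and 1.24% in RGL_young. Against 2000 UMIs per cell the share was 12.1% at P0 and 6.81% at P5, so the near equality of the ages holds for 1000 UMIs only.

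Levels were next set against RGL_young in the same pools. The astrocyte uptake list summed to 7050 CPM at P0 and 14440 CPM at P5, against 4060 and 5870 CPM in RGL_young. The radial glia list was also higher in Immature-Astro, at a summed 43155 and 29698 CPM against 22033 and 19963 CPM. Of 3319 genes at 50 CPM or more in the higher cluster at both ages, 104 (3.13%) were at least 2-fold higher in Immature-Astro at P0 and P5, and 66 (1.99%) at least 2-fold lower. These clusters were separated on the same counts, so no test was made. Pla2g3, a secreted phospholipase, stood at 93.1 and 115 CPM in Immature-Astro at P0 and P5, against 8.35 and 0.994 CPM in RGL_young. Rasl11a, a small GTPase, stood at 138 and 51.9 CPM against 6.08 and 2.98 CPM. Serpinf1, the secreted factor PEDF, stood at 107 and 215 CPM against 9.87 and 14.9 CPM, and Igfbp2, an insulin-like growth factor binding protein, at 898 and 621 CPM against 191 and 25.8 CPM. Gatm, an enzyme of creatine synthesis, and Tmem176a, a membrane protein, completed the largest ratios, at 116 and 65.2 CPM at P0 in Immature-Astro.

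The 6 genes with the largest ratios in favour of RGL_young had varied roles. Tfap2c, a transcription factor of dentate progenitors, had 1 UMI at P0 and 16 at P5, or 1.55 and 6.92 CPM, against 154 and 160 CPM in RGL_young. Neurog2, a proneural factor, stood at 4.65 and 6.06 CPM against 97.2 and 90.5 CPM, and Mycn, a growth regulator, at 1.55 and 14.7 CPM against 94.9 and 90.5 CPM. Frzb, a secreted Wnt antagonist, Gdf10, a ligand of the TGF-beta family, and Tesc, a calcium-binding protein, made up the rest. Tfap2c and Neurog2 were thus low in Immature-Astro at both ages.

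Astro-juv gives the levels of older astrocytes. Age and cluster cannot be told apart in that step, since only 13 Immature-Astro cells came from the juvenile ages. Slc1a2 was 2537 CPM at P5 and 12998 to 21403 CPM in Astro-juv, Glul 1138 against 4346 to 6189 CPM, and Clu 723 against 5104 to 6773 CPM. Gfap and Aldh1l1 were exceptions to this order and lay within the Astro-juv range. Gfap was 1533 CPM at P5 against 970 to 1701 CPM, and Aldh1l1 166 against 155 to 235 CPM. Dbi, of the astrocyte identity list, lay above every Astro-juv age, at 6791 CPM at P5 against 2347 to 2645 CPM. In the astrocyte identity list 23 of 26 genes lay below every Astro-juv age at P5, while 17.9% of all 3222 genes did and 61.9% lay above every one. The 3222 genes were chosen by their level in Immature-Astro alone. That choice favours genes above Astro-juv, so part of these shares follows from it.

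**Figure D5:**
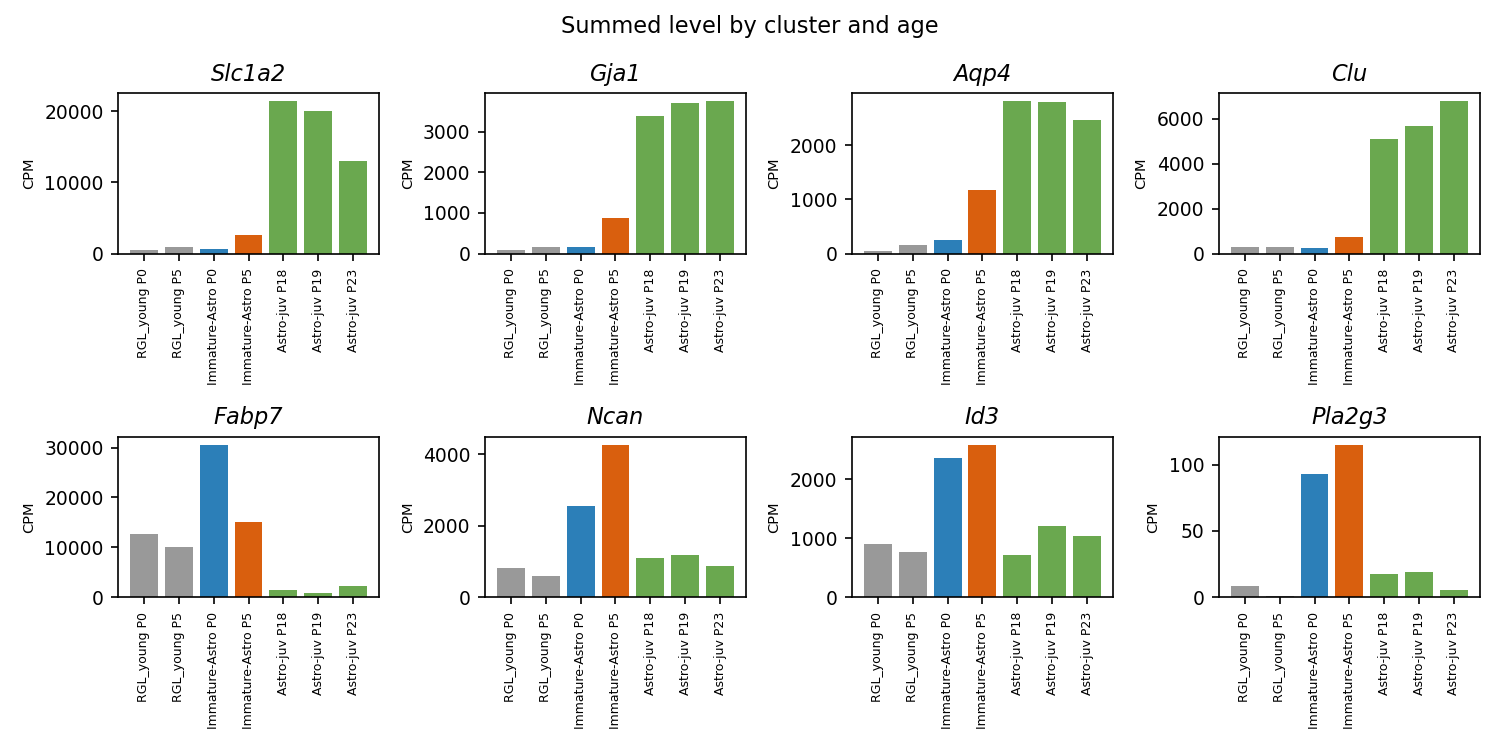
Summed level in CPM of 8 genes in RGL_young (grey), Immature-Astro (blue, P0; orange, P5) and Astro-juv (green) at the ages shown, with each axis from 0; no error is drawn, since each bar is 1 sum. Slc1a2, Gja1, Aqp4 and Clu are highest in Astro-juv, and Fabp7, Ncan, Id3 and Pla2g3 in Immature-Astro.

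Some genes were highest in Immature-Astro itself. At P0 and P5 alike, 24 genes with 50 CPM or more were at least 2-fold above each other cluster of 20 or more cells, among 10 other clusters at P0 and 14 at P5. Of these 24, 6 also stood above Astro-juv at every juvenile age: Pla2g3, Ncan, Hsdl2, Nr2c2ap, Id3 and Fabp5, of which Hsdl2, Nr2c2ap and Fabp5 were chosen after their values were seen. Ncan at P5 was 4273 CPM against 867 to 1182 CPM in Astro-juv and 600 CPM in RGL_young. Id3 at P5 was 2588 CPM against 722 to 1201 CPM. Fabp5, a fatty acid-binding protein, was 3506 CPM at P0 and 4203 CPM at P5, against 834 to 1249 CPM. Another 11 of the 24, among them Aqp4, Slc4a4 and Acsl6, lay below every Astro-juv age. Of all 3222 genes, 61.9% lay above every Astro-juv age at P5 and 17.9% below. Those shares are for P5 alone, while the 6 and the 11 genes met the rule at both P0 and P5. The 24 genes passed another filter and the 3222 were chosen by level in Immature-Astro alone, so these shares are not like for like.

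Markers of other cell types were low, with the oligodendrocyte factors as an exception. Olig1 stood at 428 and 518 CPM at P0 and 593 and 523 CPM at P5, and was detected in 69.4% and 74.7% of cells, while Olig2 was 74.5 and 109 CPM. Pdgfra, the receptor of oligodendrocyte progenitors, and Sox10 had 0 UMIs at P0 and 13.4 and 2.16 CPM at P5. Mbp, a protein of myelin, was at 23.4 CPM at P5. The neuron list summed to 185 CPM at P0 and 401 CPM at P5, and was 5534 and 5210 CPM in Immature-GC. In 6 of 514 thinned cells at P5, and 0 of 124 at P0, at least 5 of 1000 UMIs were of the neuron list. The blood list, with 2 UMIs of Alas2 at P5, summed to 29.5 CPM at P0 and 144 CPM at P5, and the ependymal, endothelial and mural, vascular leptomeningeal, microglia and macrophage, and Cajal-Retzius lists each to under 40 CPM at both ages.

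At P23 the 12 cells gave a sum of 37482 UMIs, in which 3 counts equal 80.04 CPM. They held Slc1a3 in 12 cells and all 4 markers in 10, and Fabp7 at 10058 CPM, between Immature-Astro at P5 and Astro-juv at P23 (2128 CPM). Slc1a2 was 2721 CPM at P23 against 2537 CPM at P5, and Gja1 640 against 871 CPM. Aldoc was 3575 against 1459 CPM and Sox9 934 against 441 CPM. Over the 3222 genes the Pearson correlation of log2(CPM + 10) with the P23 sum was 0.79 for Immature-Astro at P5, 0.71 for P0, 0.75 for Astro-juv at P23 and 0.72 for RGL_young at P5. Genes are not independent replicates, and these sums share depth differences. Mbp reached 800 CPM at P23, and a single cell held 63.3% of its UMIs. Only P0 and P5 had 20 cells, so the planned test of juvenile against perinatal ages was not made; with 10 cells as the minimum, P23 against P0 and P5 gave 0 of 8660 genes by edgeR's quasi-likelihood test, 604 at an unadjusted p under 0.05, and 0 by DESeq2.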

How the data were processed

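The authors deposited UMI counts for 27933 genes in 24185 cells and a table giving each cell's age, line, sex of the pool and cluster; whole-number values identify the count unit. The submitters' processing notes name Cell Ranger and mm10. Versions, annotation, cell filters, clustering and doublet handling are not given in the sources used here. Every count column matched a cell, and 0 were left out. Cells are not assigned to the 232 labelled samples. No doublet caller was run, and the deposited clusters were used.

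Counts were summed per library, age and cluster and scaled to CPM. A sum of 0 was set to 3 counts in a ratio. Genes with a mean of 50 CPM over the 4 libraries were compared, at a fold of 2. Detection was compared after thinning each cell to 1000 UMIs. Genes named were the 8 largest ratios each way between P0 and P5, the 6 largest each way against RGL_young, up to 6 members of each list by mean CPM and the 4 markers; other members were named after their values were seen. The cells, lists and rules were chosen with earlier results of these data known. The planned edgeR fit of juvenile against perinatal ages needed 20 cells per age and was not run. Alternatives changed the fold, the CPM minimum, the scaling, the cells and the libraries. Tools were Python 3.11.15, scipy 1.17.1, R 4.3.3, edgeR 4.0.16 and DESeq2 1.42.0, and the fold rule and the edgeR fit were tested on simulated data.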

Additional observations from a re-analysis of the deposited data

How the results depend on the processing

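No paired analysis was possible because the replicate numbers of the labels split 1 group of cells and the cells are not assigned to them. The 218 genes past 2-fold between P0 and P5 became 38 at a fold of 3, 605 at 20 CPM, 105 at 100 CPM and 405 with every cell thinned to 1000 UMIs, of which 140 were shared; the cause of the last was not tested. Leaving out 1 library gave 212 to 299, and without P0 library 2 the genes higher at P5 were 226 in place of 148. TMM scaling gave 208. Against RGL_young, 170 genes became 55 at a fold of 3 and 334 at 20 CPM, and TMM scaling gave 131 higher and 50 lower in place of 104 and 66. The cycling share at P0 was 12.1% at 2000 UMIs, 39.5% without thinning, 0% at 3 UMIs and 10.5% without thinning or Hmgb2. At P5 these were 6.81%, 17.9%, 0.778% and 5.45%, and 1.17% when thinned without Hmgb2. The difference in share between perinatal and juvenile ages was 4.57 percentage points. With 1 age left out it ranged from 1.14 without P5 to 6.93 without E16.5, with exact permutation p from 0.2 to 0.8. As a share of the radial glia-like and astrocyte clusters it was 30.9 points (exact permutation p = 0.4). Among astrocyte clusters alone, which had no cell at E16.5, it was 98.9 points (exact permutation p = 0.2). With ages of 10 or more cells, P23 against P0 and P5 gave 0 of 8660 genes by edgeR's quasi-likelihood test (604 at an unadjusted p under 0.05), 0 with RLE scaling (400 unadjusted), 9 without a filter and 0 by DESeq2 (330 unadjusted). The lone P23 sum was assumed to vary like the others. The alternatives of that fit that need a juvenile age of 20 cells were not run. Of 108 list medians under alternatives, 9 moved, and the cholesterol median changed sign in 2. Of 142 values of named genes, 16 moved and 0 changed direction. These genes were picked for large ratios without library overlap in the same data, so the lack of reversals adds little. Hspb1 gave no ratio without P5 library 1, which held the cell behind its call. Thinning gave 8.68 for Fxyd1 and 3.86 for Ntsr2. At P23, depth limits any gene under 80.04 CPM.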
